A study of Mus musculus with 8 samples.

Results

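The giant spring protein titin and 9 of its partners in heart muscle were followed in the left ventricle of mice that overexpress the microRNA miR-100. The 10 genes were Ttn (titin), the muscle ankyrin repeat genes Ankrd1, Ankrd2 and Ankrd23, the titin partners Mypn and Capn3, the LIM domain genes Fhl1, Fhl2 and Csrp3, and Tcap. Each had 1 row among the 22206 rows of the expression table, found by its gene symbol, and all 10 are described here whatever their signal. They were chosen on earlier results of the same comparison, in which Ankrd23 and Ankrd1 stood among the higher genes. Their differences between genotypes are therefore given as a description, and the adjusted p-values beside them, which come from the fit over the whole table, support nothing about the choice.

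The groups were 4 wild type mice and 4 mice with cardiac-specific microRNA-100 overexpression, all untreated males of strain C57/BL6J aged 8 weeks, with 1 array for each heart. The labels do not say whether the wild type animals were littermates, which promoter drives the transgene or how many founder lines there were. Since nothing but the genotype and a number separates the samples, p-values set the genotype difference against the spread of these 8 arrays within their genotypes. Values are log2 signals, so a difference of 1 is a doubling. Array medians were 5.70 to 5.74. The leading principal component separated the genotypes, with wild type arrays from -38.2 to -3.49 and miR-100 arrays from 8.96 to 30.8. Wild type replicate 2 was at the end of this axis, at -38.2 where the next wild type array was at -13.0. On the other side miR-100 replicate 2 was at 30.8, where the next miR-100 array was at 13.5. The main values are given without each of them as well. All 10 cardiomyocyte markers measured were bright, with means from 15.59 (Ryr2) to 19.85 (Atp2a2). Most of them mark atrial as well as ventricular muscle, and the brightest lie near the highest value of the table, 19.93, so they show heart muscle and not a chamber or a stable level. Myl2, the ventricular regulatory light chain, ran from 19.22 to 19.47 over the 8 arrays. The level of miR-100 itself was not checked here, since no row is named for it.

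Titin runs through the sarcomere from the Z-disc to the M-band, and its elastic I-band part carries passive tension when the muscle is stretched. Proteins docked on titin act as strain sensors. The ankyrin repeat proteins and calpain 3 bind the N2A element of the I-band, the FHL proteins bind the neighbouring N2B element, and telethonin (Tcap) together with the muscle LIM protein (Csrp3) sits at the Z-disc end. Ankrd1 and its relatives can also enter the nucleus, and Ankrd1 is known as a gene that the ventricle raises when its load increases.

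The agent that separates the groups is short enough to show in full. The labels name microRNA-100 without an arm, and RefSeq (GRCm38.p6) holds both arms of the mouse hairpin, on the plus strand at chr9:41531437-41531458 and chr9:41531471-41531492. Capitals mark the seed, bases 2 to 8, with which a microRNA finds its targets, and the seed of the 5p arm is shared with 2 other mature mouse microRNAs in that table, miR-99a-5p and miR-99b-5p.
mmu-miR-100-5p: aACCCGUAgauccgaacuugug
mmu-miR-100-3p: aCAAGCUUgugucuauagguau

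Ankrd1 and Ankrd23 were higher in the miR-100 hearts, by 1.10 and 1.03 on the log2 scale, while the differences of the other 8 genes lay between -0.25 and 0.21. Ankrd1 encodes CARP, the cardiac ankyrin repeat protein. Its log2 signal was 17.16, 16.67, 16.76 and 17.54 in wild type mice 1 to 4 and 17.88, 18.24, 17.85 and 18.54 in miR-100 mice 1 to 4. The groups did not overlap, and the lowest miR-100 heart lay 0.31 above the highest wild type heart. The means were 17.03 ± 0.40 and 18.13 ± 0.33 (SD, n = 4 each). They differed by 1.10, or 2.14-fold, with a 95% confidence interval from 0.63 to 1.56. In the whole-table fit the limma adjusted p of Ankrd1 was 0.0787.

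Ankrd23 encodes DARP, a relative of CARP that binds the same titin element. Its log2 signal was 15.20, 14.59, 14.59 and 14.57 in wild type mice 1 to 4 and 15.66, 15.77, 15.76 and 15.87 in miR-100 mice 1 to 4. Wild type mouse 1 was high for its group, the other 3 were nearly equal, and all 4 miR-100 hearts lay at least 0.46 above it. The means were 14.74 ± 0.31 and 15.77 ± 0.09 (SD, n = 4 each). They differed by 1.03, or 2.04-fold, with a 95% confidence interval from 0.67 to 1.39 and a limma adjusted p of 0.0353.

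Ankrd2, the relative best known from skeletal muscle, was dim in the ventricle. With a mean at percentile 18.4 of the table, it lay close to the background of the array. Its log2 signal was 3.29, 4.12, 3.97 and 3.78 in wild type and 4.25, 3.88, 3.79 and 4.06 in miR-100 mice. The groups overlapped, and the difference was 0.21 (95% confidence interval -0.20 to 0.61).

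**Figure D1:**
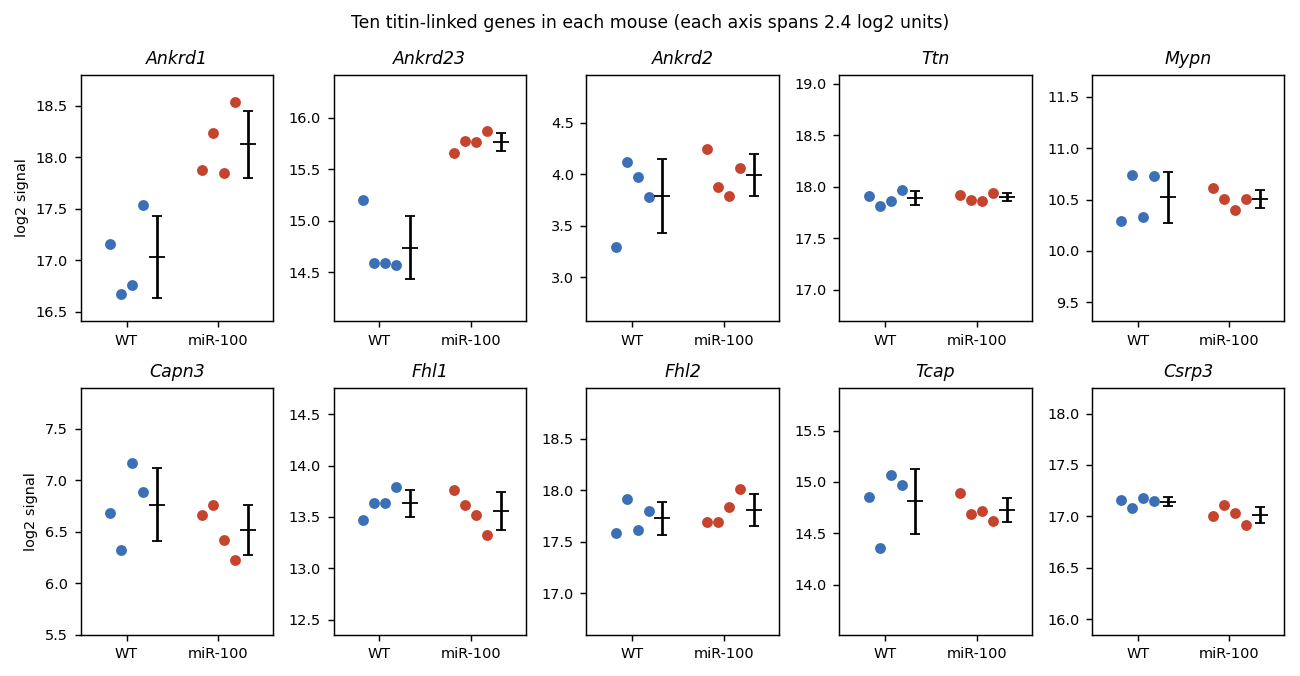
Log2 signal of the 10 genes in each mouse, with wild type in blue and miR-100 in red, replicates 1 to 4 from left to right, and the mean ± SD beside them; every axis spans the same length in log2 units. Ankrd1 (16.67 to 17.54 against 17.85 to 18.54) and Ankrd23 (14.57 to 15.20 against 15.66 to 15.87) have groups that do not overlap, and the other 8 genes have groups that do.

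Counted over the 10 genes, 1 passed an adjusted p of 0.05, Ankrd23 in the higher direction, against 0.0946% of all rows called higher and 0.140% called in either direction. For 2 genes, Ankrd1 and Ankrd23, the miR-100 values lay wholly above the wild type values, against 2.21% of all rows in that direction and 4.54% in either. The list was chosen on this comparison, so nothing is read from these counts. Differences were above 0 for 5 genes and below 0 for 5, with a median of -0.0025 beside -0.015 over all rows.

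Whether either gene passed changed when an array was left out, and the size of the difference moved less. Each such fit had fewer arrays, and the rows past the threshold fell from 31 to between 11 and 27 over the whole table. Without wild type replicate 2, the wild type extreme of the leading principal component, the difference was 0.97 for Ankrd1 and 0.98 for Ankrd23. Without miR-100 replicate 2, the extreme on the other side, it was 1.06 and 1.03. Across the 8 fits that left out an array, Ankrd1 ran from 0.96 to 1.26 and Ankrd23 from 0.97 to 1.18. Ankrd23 passed in 1 of these fits, without wild type replicate 1 (limma adjusted p = 0.0107). Its limma adjusted p was 0.118, 0.0975 and 0.0890 without wild type replicates 2, 3 and 4, and 0.0902, 0.0773, 0.111 and 0.0999 without miR-100 replicates 1 to 4 in turn. Ankrd1 passed in 1 as well, without wild type replicate 4 (limma adjusted p = 0.0427), and reached 0.240 without wild type replicate 2.

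Titin itself showed the tightest agreement of the 10 genes. Its row had 17.91, 17.81, 17.86 and 17.97 in wild type mice and 17.92, 17.87, 17.86 and 17.94 in miR-100 mice. All 8 hearts fell between 17.81 and 17.97, with a residual SD of 0.056 against a median of 0.25 over all rows. The difference was 0.01 (95% confidence interval -0.27 to 0.29, from a variance that limma moderates towards that of other rows). With 1 row for the gene, titin isoforms, which differ in their I-band exons, were not resolved. Bright rows such as this lie closer to the highest value of the table, 19.93, where differences can be compressed. The brightest value of the 10 genes, 18.54 in Ankrd1, was 1.39 below it.

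Mypn encodes myopalladin, which ties Ankrd1 to alpha-actinin and nebulin family proteins. Its log2 signal was 10.29, 10.74, 10.33 and 10.73 in wild type mice and 10.61, 10.51, 10.40 and 10.51 in miR-100 mice. The wild type hearts formed a lower and a higher pair, and every miR-100 heart lay between them. Their difference was -0.015 (95% confidence interval -0.35 to 0.32).

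Capn3, the muscle calpain that docks on N2A, was 6.68, 6.32, 7.17 and 6.89 in wild type mice and 6.66, 6.76, 6.42 and 6.23 in miR-100 mice. This was the lowest difference of the 10 genes, at -0.25 (95% confidence interval -0.66 to 0.17). The groups overlapped, with wild type mice 3 and 4 above every miR-100 heart. Capn3 stood at percentile 58.7 of row means. Leaving out wild type replicate 2 gave -0.40, and leaving out replicate 3 gave -0.11.

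The N2B partners showed no separation. Fhl1, a LIM domain protein linked to hypertrophic signalling at titin, had 13.47 to 13.79 in wild type and 13.32 to 13.76 in miR-100 hearts, a difference of -0.08 (95% confidence interval -0.40 to 0.24). Fhl2, which tethers metabolic enzymes to titin and restrains hypertrophic signals, had 17.58 to 17.91 and 17.69 to 18.01, a difference of 0.08 (95% confidence interval -0.23 to 0.40). Their differences had opposite signs, and both intervals include 0 and stop well short of the difference of 1.10 in Ankrd1.

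At the Z-disc, Tcap encodes telethonin, the cap that joins titin ends. Its log2 signal was 14.85, 14.36, 15.07 and 14.97 in wild type mice and 14.89, 14.69, 14.72 and 14.62 in miR-100 mice. Wild type mouse 2 was the lowest of all 8, and the difference of -0.08 (95% confidence interval -0.45 to 0.28) became -0.23 without it. Csrp3, the muscle LIM protein of the Z-disc stretch sensor, had 17.16, 17.08, 17.18 and 17.15 in wild type mice and 17.00, 17.11, 17.03 and 16.92 in miR-100 mice. Of the miR-100 hearts 3 lay below every wild type heart, and the second was between them. Its difference was -0.13 (95% confidence interval -0.41 to 0.15).

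**Figure D2:**
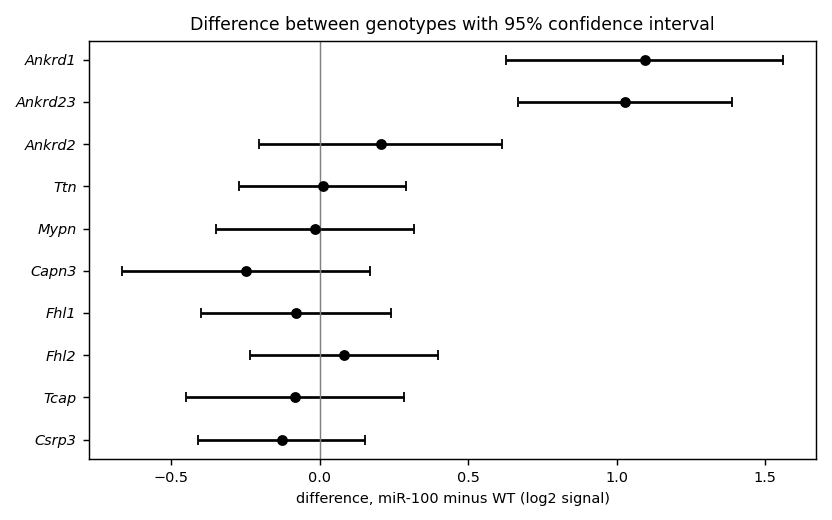
Difference between genotypes (miR-100 minus wild type, log2 signal) for each of the 10 genes, with bars for the 95% confidence interval of the limma fit. The intervals of Ankrd1 (0.63 to 1.56) and Ankrd23 (0.67 to 1.39) lie above 0, and those of the other 8 genes, between -0.66 and 0.61, include it.

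Ankrd1 and Ankrd23 did not order the mice alike within a genotype. Among wild type mice Ankrd1 was highest in mouse 4 and Ankrd23 in mouse 1, with mouse 4 lowest for Ankrd23. Both were highest in mouse 4 of the miR-100 group, and there Ankrd1 spread over 0.69 and Ankrd23 over 0.21. Over the 8 deviations from the group means, their Pearson correlation was 0.28. The rows of the brighter part of the table (9991 compared) whose deviations were most like those of Ankrd1 were Mrpl18, a mitochondrial ribosomal protein gene, Bag5, an Hsp70 cochaperone gene, and Bclaf1, with correlations of 0.980, 0.978 and 0.974. For Ankrd23 they were Gusb, the lysosomal beta-glucuronidase gene, Pcdh17, a protocadherin gene, and Ppp2r2a, a phosphatase subunit gene, with 0.966, 0.965 and 0.961. These 6 genes had differences between -0.26 and 0.39. The values describe 8 arrays, and the highest of 9991 correlations is high whatever the gene.

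Promoter sequence is shown for the 2 genes with non-overlapping groups and for Mypn, whose window carries the same motif while its groups overlap. RefSeq starts (GRCm38.p6) matched 9 of the 10 genes, with 14 start sites in all, and the 250 bases before each start were searched on both strands. Capitals mark the M-CAT core, CATTCC or on the other strand GGAATG, the element that TEAD factors bind in muscle promoters. The windows lie on the minus strand at chr19:36119845-36120094 for Ankrd1, chr1:36535740-36535989 and chr1:36536557-36536806 for the downstream and upstream starts of Ankrd23, and chr10:63203953-63204202 for Mypn, and each is written in the direction of transcription.
Ankrd1: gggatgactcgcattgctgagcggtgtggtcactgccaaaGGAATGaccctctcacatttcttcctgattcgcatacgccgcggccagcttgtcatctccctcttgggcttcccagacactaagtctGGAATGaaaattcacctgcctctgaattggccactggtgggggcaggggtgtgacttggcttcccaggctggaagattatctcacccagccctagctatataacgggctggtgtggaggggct
Ankrd23 downstream start: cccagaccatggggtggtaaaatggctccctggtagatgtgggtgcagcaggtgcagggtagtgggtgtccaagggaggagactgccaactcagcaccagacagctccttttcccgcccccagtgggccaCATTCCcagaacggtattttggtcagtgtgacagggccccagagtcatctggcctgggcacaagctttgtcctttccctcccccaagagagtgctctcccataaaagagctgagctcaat
Ankrd23 upstream start: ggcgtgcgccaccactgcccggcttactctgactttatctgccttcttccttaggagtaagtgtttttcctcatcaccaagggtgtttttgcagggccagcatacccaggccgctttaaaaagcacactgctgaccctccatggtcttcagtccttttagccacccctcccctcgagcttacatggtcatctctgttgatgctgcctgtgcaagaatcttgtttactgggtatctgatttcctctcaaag
Mypn: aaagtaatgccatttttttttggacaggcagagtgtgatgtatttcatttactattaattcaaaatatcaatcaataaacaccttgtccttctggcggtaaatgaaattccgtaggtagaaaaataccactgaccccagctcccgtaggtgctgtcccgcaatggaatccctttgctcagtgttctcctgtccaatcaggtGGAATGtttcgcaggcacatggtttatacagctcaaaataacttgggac

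The Ankrd1 window held the M-CAT core at 2 places, starting 210 and 123 bases before the start. The downstream window of Ankrd23 held it once, starting 120 bases before the start, its upstream window did not hold it, and the Mypn window held it 49 bases before the start. In all 3 of the 14 windows held this core, against 12.6% of 32851 RefSeq windows of the same length. The 3 genes with the core, Ankrd1, Ankrd23 and Mypn, had differences between genotypes of 1.10, 1.03 and -0.015. The E-box CANNTG, which reads the same on both strands and was counted once per place, was in 13 of the 14 windows (66.2% of all windows), and in Mypn it shares a base with the M-CAT core. The GATA core GATAA was in 4 (22.6% of all windows), including the Ankrd1 window and the upstream window of Ankrd23, and TATAAA was in 4 (12.4%). The CArG box, bound by SRF, was in both Fhl2 windows and 1 Fhl1 window (1.47% of all windows), and the MEF2 site in a window each of Fhl2, Ttn and Capn3 (2.92%). In Fhl2 the TATAAA match lies inside the MEF2 match. A match is a stretch of letters, and binding was not measured.

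Genes that share a family, a docking site or a regulator with the 10 were counted in 8 lists holding 164 measured genes, each counted once. None passed in the whole-table limma fit (0 of 164), and 18 (11.0%) had an unadjusted p under 0.05, against 7.73% of all rows. The other Ankrd genes, which share the repeat but mostly not the muscle role, were centred near 0. Of 40 measured, 16 had differences above 0 and 24 below, with a median of -0.024 beside -0.015 over all rows, and 0 passed. Ankrd12, a chromatin cofactor gene, had the lowest unadjusted p, at 11.86 ± 0.17 and 11.48 ± 0.07 (SD, n = 4 each), a difference of -0.38. Ankrd27 had the highest difference, 0.42, and Ankrd9 the lowest, -0.52.

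The Z-disc and I-band partners of titin had a median difference of 0, which was that of Bag3, whose means were equal in the groups. Of the 29 genes, 14 were below 0 and 0 passed. Myot, a Z-disc protein of the same family as myopalladin, had 11.52 ± 0.50 and 10.83 ± 0.26 (SD, n = 4 each), the lowest difference of the list at -0.69, with overlapping groups. Flnc, the muscle filamin gene, differed by 0.43 and Pdlim3 by 0.48, and neither passed. Among 13 A-band and M-band genes, 7 were above 0, the median was 0.03 and 0 passed. Mybpc3, cardiac myosin binding protein C, had 16.13 ± 0.09 and 16.52 ± 0.23 (SD, n = 4 each) with no overlap, a difference of 0.40. Trim55, a muscle ubiquitin ligase that binds titin, differed by 0.39, and Sqstm1, an autophagy receptor gene of the titin kinase complex, by -0.24.

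Among 14 LIM domain relatives of Fhl1, Fhl2 and Csrp3, 10 were below 0, the median was -0.094 and 0 passed. The lowest was Csrp1 at -0.30 and the highest Crip2 at 0.20. The calpain system around Capn3 had 4 of 10 genes above 0, a median of -0.063 and 0 passed. Cast, the calpain inhibitor calpastatin, had 13.60 ± 0.11 and 13.89 ± 0.08 (SD, n = 4 each) with no overlap, a difference of 0.29, while Capn7 and Capn5 differed by -0.27 and -0.26.

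The genes known to answer ventricular load divided, and the natriuretic peptide genes had the highest differences of the list. Nppa had 17.53, 17.15, 17.04 and 17.54 in wild type mice and 18.76, 18.07, 18.11 and 18.48 in miR-100 mice, a difference of 1.04 (limma adjusted p = 0.0616). Nppb had 11.81, 10.41, 10.73 and 11.58 in wild type mice and 12.05, 13.34, 12.51 and 12.22 in miR-100 mice, a difference of 1.40 (limma adjusted p = 0.176). Neither gene had overlapping groups. Wild type mice 1 and 4 were above mice 2 and 3 for Ankrd1, Nppa and Nppb alike, while Ankrd23 was high in mouse 1 alone. The miR-100 mice did not share an order. There Ankrd1 was highest in mouse 4, Nppa in mouse 1 and Nppb in mouse 2. Mouse 1 was the lowest for Nppb, and mouse 2 the lowest for Nppa. Egr1, an immediate early gene, went the other way, at -1.27, with values from 7.56 to 9.76 in wild type and from 7.24 to 7.91 in miR-100 hearts. Its limma adjusted p was 0.330 with all 8 arrays. It passed in 1 fit alone, without wild type replicate 3, the lowest of its group (-1.73, limma adjusted p = 0.0240). Acta1 and Myh7, the skeletal actin and beta myosin genes of the same response, differed by 0.07 and -0.38. For 4 genes of the list the miR-100 values lay wholly above the wild type values, against 2.21% of all rows. They were Nppa, Nppb, Rcan1 (0.58) and Enah (0.29). For 1 gene, Hbegf (-0.605), they lay wholly below. In either direction 4.54% of all rows had no overlap. The list was chosen with earlier results known, so nothing is read from these counts. Over the 17 measured genes 8 were above 0, the median was -0.023 and 0 passed in the fit of all 8 arrays.

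**Figure D3:**
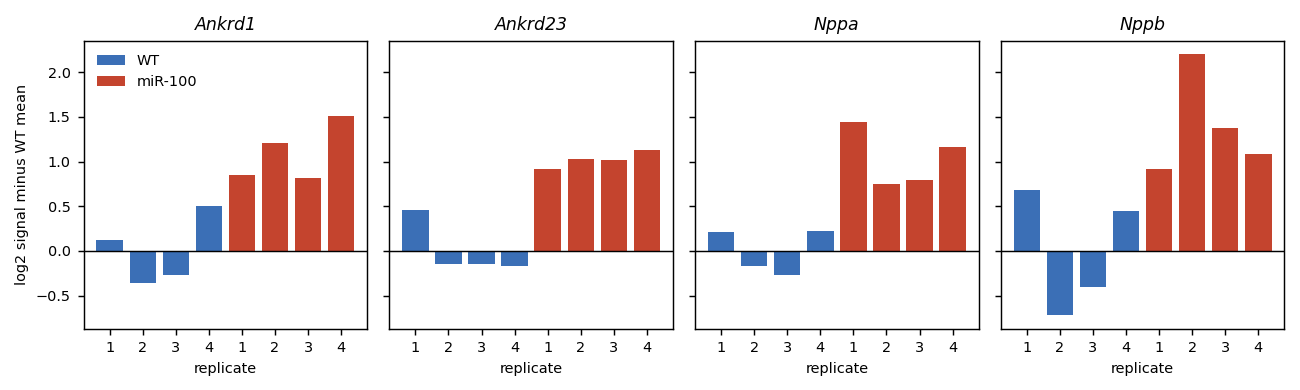
Log2 signal minus the wild type mean in each mouse for Ankrd1, Ankrd23, Nppa and Nppb, with wild type replicates in blue and miR-100 replicates in red. Every miR-100 bar lies above every wild type bar in its panel, and wild type mice 1 and 4 lie above 0 for Ankrd1, Nppa and Nppb. The highest miR-100 bar is mouse 4 for Ankrd1, mouse 1 for Nppa and mouse 2 for Nppb.

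Nppa is also a gene of the atrium, so atrial tissue in a ventricular sample would carry it. Over the 6 atrial markers, Nppa included, the mean log2 signal ran from 7.98 to 8.06 in wild type and from 7.97 to 8.31 in miR-100 hearts. Over the 5 without Nppa, a set formed after the values were seen, it ran from 6.12 to 6.25 and from 5.86 to 6.21, with 2 of 5 differences above 0. Myl7 and Myl4, the atrial myosin light chain genes, differed by -0.40 and -0.26, Sln by -0.013, Bmp10 by 0.085 and Stard10 by 0.10. Stard10 reached 10.48 in miR-100 mouse 1, the mouse with the highest Nppa, against at most 9.76 in wild type mice. In that mouse Myl7 was 3.36, against 4.08 to 4.37 in wild type mice, and Myl4 was 7.72, against 7.68 to 7.99. Its Sln was 5.66, against 5.21 to 5.70, and its Bmp10 was 3.85, against 3.52 to 3.82. Myl7, Sln and Bmp10 lay below the median row. The part of atrial tissue in the Nppa and Ankrd1 values was not tested. The skeletal muscle markers, set beside Ankrd2 and Capn3, had means from 5.42 to 5.64 in wild type and from 5.42 to 5.57 in miR-100 hearts, with 9 of 18 above 0 and 12 of 18 below the median row. In a sample of whole tissue, fewer cells of a type and less RNA per cell cannot be told apart.

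Ankrd1 is widely used as a target gene of the YAP and TEAD factors, and its fellow targets had a median near 0. Of 23 measured, 13 were above 0, the median was 0.01 and 0 passed. Ccn2 (connective tissue growth factor) had the highest difference, 0.62, with 8.26 to 9.63 in wild type and 8.78 to 10.28 in miR-100 hearts, which overlapped. Ccn1 differed by 0.12. Ptpn14, a phosphatase that restrains YAP, had the lowest, at 8.87 ± 0.10 and 8.28 ± 0.25 (SD, n = 4 each) with no overlap, a difference of -0.59, and the membrane repair gene Myof differed by -0.45.

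The regulators were close to 0 as a group, with 9 of 19 above 0, a median of -0.015 and 0 passed. Tbx5, a heart lineage transcription factor, had the lowest difference, -0.45, with no overlap between 9.10 ± 0.21 and 8.65 ± 0.12 (SD, n = 4 each). Tead4, a dim row, differed by -0.35 and Srf by 0.38. Tead1, the main TEAD factor of the heart, differed by -0.015 and Yap1 by -0.23, and Rbm20, the splicing factor that sets titin isoforms, by 0.09.

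**Figure D4:**
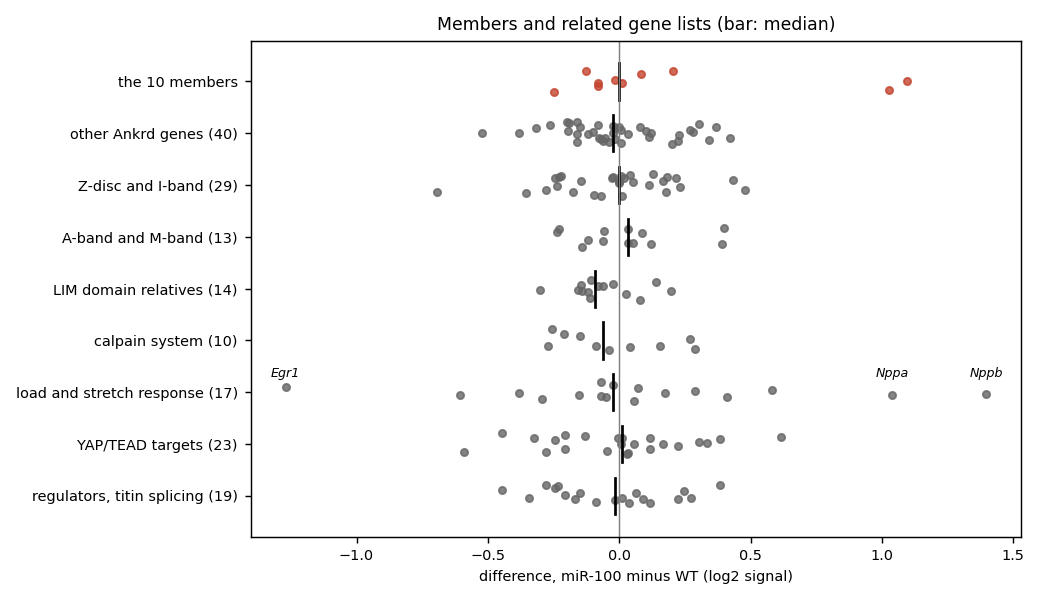
Difference between genotypes (miR-100 minus wild type, log2 signal) for the 10 genes in red and for 8 related lists in grey, 1 point per gene, with a bar at each median and the number of genes in brackets. The medians lie between -0.094 and 0.033, and Nppb (1.40), Nppa (1.04) and Egr1 (-1.27) lie farthest from 0 among the listed genes.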

How the data were processed

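Left ventricular RNA of 4 wild type and 4 miR-100 overexpressing mice was measured on 1 array each. The authors deposited log2 signals, 1 row per transcript cluster. The submitters' processing notes name Transcriptome Analysis Console 4.0; the normalization method and the build are not given in the sources used here. Of 22206 rows, 19572 had 1 symbol in the platform annotation. The deposited values entered limma 3.58.1 in R 4.3.3 without transformation or filter, with genotype as the single term. Benjamini-Hochberg adjustment covered the whole table, and the threshold was 0.05. The fit was run on simulated data with independent noise, which checks the code and not the differences described here. The brightest row stood for a gene with several.

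Genes and lists were chosen with earlier results of these data known. Named were the 10 genes; per list any gene past the threshold, the 2 with the lowest unadjusted p, and the highest and lowest; and the 3 rows most like Ankrd1 and Ankrd23. Acta1, Myh7, Rcan1, Enah, Hbegf, Bag3, Ccn1, Tead1, Yap1, Rbm20 and single marker genes were picked after their values were seen. Alternatives were a trend or robust variance in the moderation, weighted arrays, quantile or median scaling, leaving out rows under the 25th or 50th percentile or without a symbol, a threshold of 0.1, a replicate block, and leaving out each array. Signal over background and the number of arrays limit precision.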

Additional observations from a re-analysis of the deposited data

Results flagged for a closer look

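In wild type mouse 1, Ankrd23 had a log2 signal of 15.20, and the remaining 3 mice of that genotype had 14.57 to 14.59. The gap to the nearest of them took up 0.968 of the group's range, above the 95% critical value of Dixon's test for 4 values. Of the 20 groups of 4 values examined, 10 genes in each genotype, this was the 1 past it, and chance gives about 1 in 20. Without that mouse the difference of Ankrd23 was 1.18 in place of 1.03. The same mouse was not the highest wild type mouse for Ankrd1.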

How the results depend on the processing

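In the settings that used all 8 arrays the differences of Ankrd1 and Ankrd23 ran from 1.05 to 1.12 and from 0.998 to 1.03. Both kept their direction under every alternative run, and nothing is read from that. Their groups do not overlap, so leaving out an array could not change the direction. Settings that alter only the variance, the rows or the block leave the difference as it was. An intensity trend in the moderation gave 65 rows past the threshold in place of 31, with 2 of the 10 genes (Ankrd1 had a limma adjusted p of 0.0118) and 1 listed gene, Nppa. A threshold of 0.1 also gave 65 rows, 2 of the 10 genes and 1 listed gene, Nppa. Nppa was the 1 listed gene past the threshold among rows above the 50th percentile too (limma adjusted p = 0.0399). Over the whole table same-numbered mice did not deviate together (correlations from -0.060 to 0.066). Such values cannot show whether the numbers mark a pairing in some genes, and the labels do not give one. With the replicate block 0 of the 10 genes passed (limma adjusted p of Ankrd23 = 0.0881), 1 listed gene, Nppa, did (0.0466), and 21 rows passed in all. Leaving out 1 array gave from 11 to 27 rows, from 0 to 1 of the 10 genes and from 0 to 1 listed genes. Of the 8 other genes none passed in any setting, and Ttn, Mypn and Tcap changed sign when single arrays were left out, within -0.016 to 0.038, -0.093 to 0.058 and -0.23 to 0.0033. With quantile normalization or other settings on all arrays, Ttn ran from -0.0031 to 0.016 and Mypn from -0.027 to 0.020. The causes were not tested. The dim row of Ankrd2 limits what can be said of it.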

Other observations

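Among the marker lists of other cell types 0 genes passed in limma. Median differences were -0.14 over 7 fibroblast markers, -0.05 over 6 endothelial markers, -0.063 over 7 smooth muscle and pericyte markers and -0.011 over 6 macrophage markers, and Alas2, the 1 red blood cell marker measured, differed by -0.20. Acta2, the smooth muscle actin gene, was at 12.73 ± 0.10 and 13.84 ± 0.71 (wild type, then miR-100, SD, n = 4 each). Its groups did not overlap, and its difference was 1.11 (limma adjusted p = 0.203). In the same list Myh11, Cnn1 and Tagln differed by -0.063, 0.055 and -0.19, and Kcnj8 by -0.31 with no overlap. The cell type behind the Acta2 values was not tested. Among skeletal muscle markers Casq1 differed by 0.89 and Myl1 by -0.95. These genes were picked after their values were seen.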
